A study of Homo sapiens with 2 samples.

Results

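Ephrins, semaphorins and the receptors that read them were examined in human cerebral organoids by marker-defined cell type. The set held 53 of the 62704 genes counted, chosen by name: 9 EPHA and 5 EPHB receptors, 5 ephrin-A and 3 ephrin-B ligands, 7 class 3 semaphorins, 13 semaphorins of classes 4 to 7, 9 plexins and the 2 neuropilins. By role these were 28 ligands and 25 receptors. The study asked how the shape of cerebral organoids bears on the timing of cell fate. All organoids came from H9, an established human embryonic stem cell line, so the data are of 1 genotype. In the library of cells, control organoids (CO) were collected at days 45, 55 and 70. Dissociated organoids (DISS) had been broken up into single cells at day 45, allowed to reaggregate and collected at days 48, 55 and 70, and constrained organoids (CONS) had been freed of Matrigel at day 13, held in 3% agarose and collected at day 55. The library of nuclei came from day 45 CO, taken from whole organoids and from dissociated cells, and its label also carries the word Embed. No file assigned barcodes to organoids or conditions, so each library was 1 sample, conditions and days were not compared, and no test could be made.

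Ephrins and Eph receptors signal between touching cells. Ephrin-A proteins are held to the membrane by a lipid anchor and ephrin-B proteins span it, and both the receptor-bearing and the ephrin-bearing cell can respond. In the developing cortex they set boundaries, guide axons and act in the progenitor zone. Class 3 semaphorins are secreted and act through a neuropilin that binds the ligand and a plexin that carries the signal inside, with SEMA3E binding PLXND1 without a neuropilin. Semaphorins of classes 4 to 7 are made as membrane-bound proteins, and many bind plexins directly. These cues repel or attract growing axons and migrating neurons.

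After filtering, 20178 cells (median 2615 transcripts) and 14228 nuclei (median 3890 transcripts) remained, with 157306496 and 72162728 transcripts in all. Clusters were built without the 53 genes and named from marker lists. The cells held 2308 radial glia-like (RG-like), 3805 dividing progenitor-like, 754 intermediate progenitor-like (IP-like), 1669 excitatory neuron-like and 1574 choroid plexus-like barcodes, and 10068 stayed unnamed. The nuclei held 3703 RG-like, 2401 dividing progenitor-like, 2589 excitatory neuron-like, 821 Cajal-Retzius-like, 786 cortical hem-like and 367 choroid plexus-like barcodes, and 3561 stayed unnamed. Of the 3 clusters pooled as RG-like nuclei, 1 had 905 nuclei, 54.1% of them from 1 first-round well. That cluster passed the RG markers SLC1A3, NES, GLI3 and PTPRZ1 but not PAX6 or SOX2, and SEMA5A was among its first 10 genes. No cluster passed the marker rule for inhibitory neurons. In the cells, 829 barcodes of over 30000 transcripts held 38.8% of all transcripts, and 6574 barcodes had a combination of 3 wells that was kept in more than 1 sub-library. In the nuclei the corresponding numbers were 80 barcodes with 5.23% of transcripts and 1272 barcodes. Counts below were also taken without barcodes over 30000 transcripts and without the shared combinations. The libraries shared 99 barcode names, which were kept.

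Levels are transcripts of a gene per 1000000 transcripts of the type (CPM), followed in brackets by the 95% Poisson interval. Folds carry 95% exact intervals. Both cover counting error only, and neither measures the spread between organoids. A gene was called when it differed at least 2-fold between types with at least 20 transcripts in both types together. All 53 genes had at least 50 transcripts in the cells and 51 had them in the nuclei, where EPHA1 had 23 and SEMA3G 11. The libraries also held free RNA. In barcodes of 10 to 100 transcripts, PLXNA4 stood at 321 CPM in the cells and 282 CPM in the nuclei, close to its level of 313 and 306 CPM over all kept barcodes. A low level in a type may therefore be background and was not read as expression. Where the free RNA lies this close to the average of the library, a level below it does not by itself show background.

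To show the DNA in front of genes that moved together, the 250 bases before the transcription start are given for 4 genes with at least 1000 transcripts in each library. PLXNA4 and PLXND1, both receptors of semaphorins, had the largest neuron-like over RG-like differences in both libraries among genes with that many transcripts and a single promoter entry. SEMA5A, a membrane-bound semaphorin, and EPHB4, a receptor of ephrin-B2, had the largest in the opposite direction under the same limits. EPHA10 differed more than PLXNA4, EPHA2 more than SEMA5A and SEMA3D more than EPHB4, but each had fewer than 1000 transcripts in the nuclei. Each sequence is from RefSeq on GRCh38.p14 and reads 5′ to 3′ on the minus strand, which carries all 4 genes. The positions are chr7:132576471-132576720 for PLXNA4, chr3:129606677-129606926 for PLXND1, chr5:9546076-9546325 for SEMA5A and chr7:100827524-100827773 for EPHB4. The PLXNA4 start used is an internal one, since the annotated gene reaches chr7:132648688, while the windows of PLXND1, SEMA5A and EPHB4 abut the annotated genes. Capitals mark matches to 4 short motifs searched on both strands.
PLXNA4: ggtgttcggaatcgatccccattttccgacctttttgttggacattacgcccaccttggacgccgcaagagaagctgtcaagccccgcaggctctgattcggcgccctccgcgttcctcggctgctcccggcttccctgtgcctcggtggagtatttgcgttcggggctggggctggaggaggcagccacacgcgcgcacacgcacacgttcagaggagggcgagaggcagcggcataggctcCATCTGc
PLXND1: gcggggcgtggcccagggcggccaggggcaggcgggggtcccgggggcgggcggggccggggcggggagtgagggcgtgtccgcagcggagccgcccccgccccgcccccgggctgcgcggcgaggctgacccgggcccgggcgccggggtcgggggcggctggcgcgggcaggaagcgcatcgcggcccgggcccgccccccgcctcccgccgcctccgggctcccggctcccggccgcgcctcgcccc
SEMA5A: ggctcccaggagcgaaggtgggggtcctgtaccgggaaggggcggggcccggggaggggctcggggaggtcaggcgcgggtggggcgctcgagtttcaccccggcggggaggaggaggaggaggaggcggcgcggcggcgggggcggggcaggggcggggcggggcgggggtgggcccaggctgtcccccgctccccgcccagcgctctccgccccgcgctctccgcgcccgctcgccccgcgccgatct
EPHB4: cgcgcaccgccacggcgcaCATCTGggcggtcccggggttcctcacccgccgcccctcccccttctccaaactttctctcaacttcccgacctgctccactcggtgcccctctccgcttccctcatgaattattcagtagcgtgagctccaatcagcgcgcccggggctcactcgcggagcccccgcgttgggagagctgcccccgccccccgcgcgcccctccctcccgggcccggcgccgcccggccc

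The motifs were the E-boxes CAGATG and CAGCTG, bound by basic helix-loop-helix factors, ACAAAG, the core of SOX factor sites, and GTGGGAA, a site of the Notch effector RBPJ. The letters CATCTG, the reverse complement of CAGATG, began 7 bases before the PLXNA4 start and 231 bases before the EPHB4 start, so that 1 match lay in front of a gene higher in neurons and the other in front of a gene higher in RG. No match to the 4 motifs was found in the windows of PLXND1 and SEMA5A. Among all 35116 promoters of the table, 12.2% held CAGATG, 14.0% CAGCTG, 13.7% ACAAAG and 5.43% GTGGGAA. Of the 74 promoters that matched 47 of the 53 genes, 8 held CAGATG, 11 CAGCTG, 7 ACAAAG and 0 GTGGGAA. The G and C content was 63.6% for PLXNA4, 88.8% for PLXND1, 82.0% for SEMA5A and 72.8% for EPHB4, against a median of 58% over all promoters.

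Excitatory neuron-like barcodes were first compared with RG-like ones, the step from the progenitor that lines the ventricle to its neuronal progeny. In the cells, 18 of the 52 genes tested were at least 2-fold higher in neurons and 11 at least 2-fold lower, while 8.78% and 11.6% of all genes were. In the nuclei, 19 of 50 were higher and 13 lower, while 11.7% and 19.3% of all genes were. Of the 50 genes tested in both libraries, 17 were higher in both and 11 lower in both, against 7.4% and 10.7% of all genes, and 0 were called in opposite directions. The median log2 difference of the genes tested was 0.34 in the cells and 0.43 in the nuclei, where that of all genes was −0.15 and −0.25. Both directions took in ligands and receptors: in the cells 9 ligands and 9 receptors were higher and 5 ligands and 6 receptors lower.

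**Figure D1:**
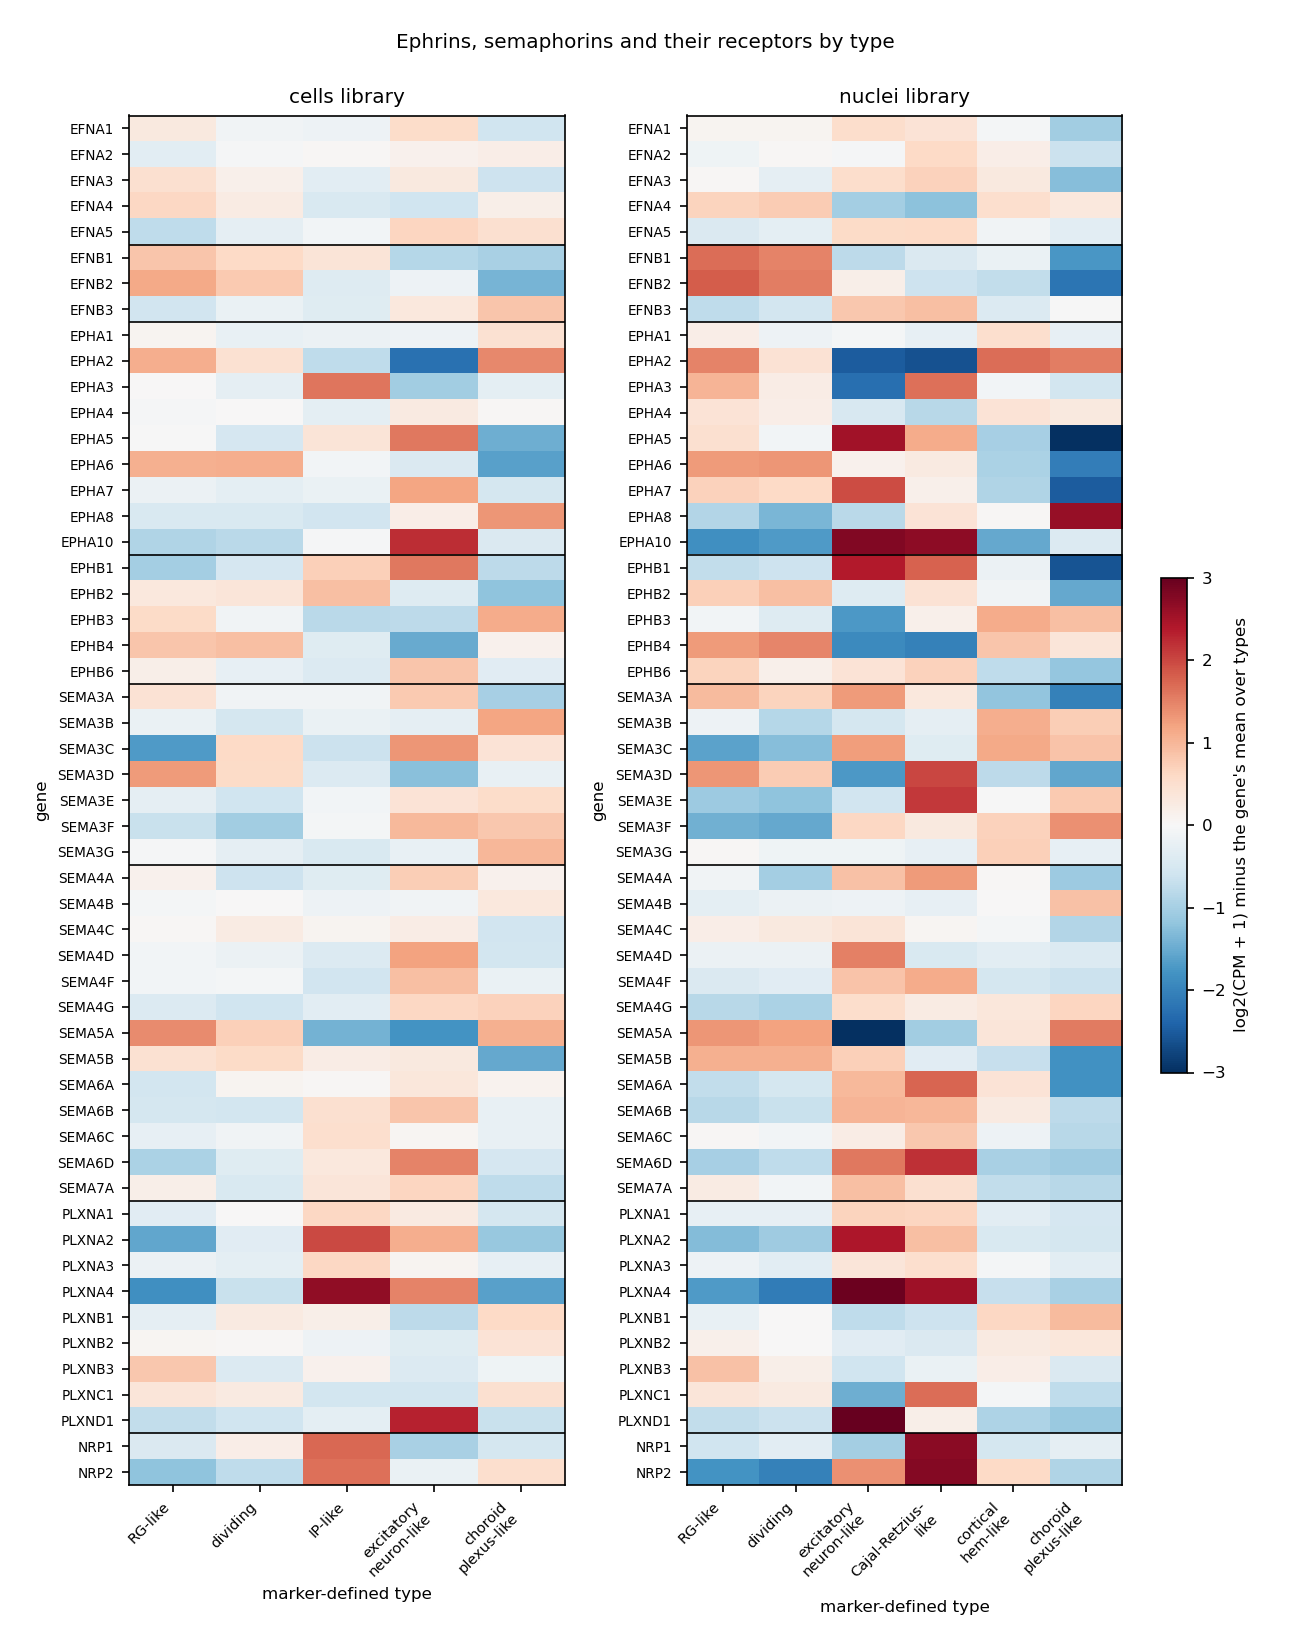
Each row is 1 of the 53 genes, grouped by role, and each column a marker-defined type of the cells library (left) or the nuclei library (right). Colour is log2(CPM + 1) minus the gene's mean over the types of that library, shown between −3 and 3, red for higher and blue for lower. PLXNA2, PLXNA4, PLXND1, EPHB1 and SEMA6D are red in neuron-like columns of both libraries and EFNB1, EFNB2, EPHB4 and SEMA5A in RG-like ones.

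PLXNA2, PLXNA4 and PLXND1 were the 3 plexins among the neuron-high receptors. PLXNA4, a receptor subunit for class 3 and class 6 semaphorins, stood at 529 CPM (518 to 540) in neuron-like and 51.2 CPM (47.5 to 55.0) in RG-like cells, and at 639 CPM (626 to 653) and 24.3 CPM (21.8 to 27.1) in nuclei. The folds were 10.3 (9.59 to 11.2) and 26.3 (23.5 to 29.4). PLXNA4 was higher in neurons in 30 of 30 first-round wells of the cells with at least 10 barcodes of each type and in 12 of 12 of the nuclei. No file says which organoids or conditions a well holds, so wells are not replicates. PLXND1, the receptor of SEMA3E, rose from 9.19 CPM (7.69 to 10.9) to 83.9 CPM (79.6 to 88.3) in cells and from 5.26 CPM (4.12 to 6.62) to 96.8 CPM (91.6 to 102) in nuclei. Its well values overlapped in the cells, where it was higher in 28 of 30 wells, and did not in the nuclei, where RG-like wells ran from 1.96 to 13.4 CPM and neuron-like wells from 60.6 to 139 CPM. NRP2, a neuropilin, rose from 10.4 CPM (8.78 to 12.2) to 21.9 CPM (19.7 to 24.2) in cells and from 4.97 CPM (3.86 to 6.30) to 52.1 CPM (48.3 to 56.1) in nuclei. Its log2 fold in nuclei was 3.39, and 1.71 at Leiden resolution 0.5 and 1.74 with another clustering seed. The free RNA held NRP2 at 31.5 CPM in the cells, above its neuron-like level, and at 32.5 CPM in the nuclei. Over all kept cells NRP2 averaged 27.5 CPM, and the part of free RNA in its call there is not known. PLXNA2, a partner of neuropilins and of class 6 semaphorins, was 6.30-fold (5.99 to 6.63) higher in neuron-like cells and 13.4-fold (12.6 to 14.4) in nuclei. The free RNA held PLXNA2 at 423 CPM in the cells, above its RG-like level of 120.5 CPM (115 to 126).

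Among the Eph receptors, neurons carried EPHA5, EPHA7, EPHA10 and EPHB1. EPHA10, a kinase-dead member of the family, showed the widest difference of all 53 genes that were higher in neurons. It was 11.9-fold (8.43 to 17.4) higher in cells and 64.8-fold (32.7 to 151) in nuclei, from 2.37 and 0.584 CPM in RG-like barcodes. The RG-like level in nuclei rested on few transcripts, since 3 counts there were worth 0.219 CPM. The free RNA of the nuclei held EPHA10 at 13.4 CPM. EPHA5, a receptor of ephrin-A ligands, was the more abundant one at 969 CPM (955 to 984) in neuron-like cells and 1358 CPM (1338 to 1377) in nuclei. That was 3.01-fold (2.92 to 3.11) and 4.13-fold (3.99 to 4.27) above the RG-like level, in 30 of 30 and 12 of 12 wells. EPHB1, a receptor of ephrin-B ligands, was 6.14-fold (5.73 to 6.60) and 8.80-fold (8.19 to 9.47) higher. Genes were set side by side per kilobase of exon, and their order can differ by CPM alone, as it did in RG-like barcodes. The length was that of all annotated exons of a gene together. Whether counts scale with it was not tested, so ranks on this scale are descriptions. On this scale EPHA5 was first of the 53 genes in neuron-like barcodes, at 98.6 CPM per kilobase in cells and 138 in nuclei. EPHB1 followed at 64.6 and 90.9 CPM per kilobase. EPHA8 was called in cells only, at 2.25-fold (1.13 to 4.79) and at 1.88 CPM, below its level of 3.58 CPM in the free RNA.

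Of the 9 neuron-high ligands in cells, 2 were class 3 semaphorins and 5 semaphorins of classes 4 to 7, classes that hold 7 and 13 of the 28 ligands of the set. SEMA3C, a secreted cue, stood at 167 CPM (161 to 173) in neuron-like and 19.5 CPM (17.3 to 21.9) in RG-like cells and at 78.6 CPM (74.0 to 83.5) and 10.1 CPM (8.47 to 11.9) in nuclei. SEMA3C was higher in neurons in 30 of 30 and 12 of 12 wells, and SEMA3C and SEMA3F were the class 3 semaphorins past 2-fold in this direction. SEMA6D, a membrane-bound ligand of plexin A, was 5.48-fold (5.17 to 5.81) and 6.05-fold (5.74 to 6.38) higher. SEMA3F, SEMA4D, SEMA4F, SEMA4G and SEMA6B were called in both libraries, with folds from 2.05 to 3.42 in cells and from 2.57 to 5.17 in nuclei. SEMA4A and SEMA6A were called in nuclei only, at 2.07-fold (1.72 to 2.49) and 3.30-fold (3.06 to 3.56). Among the ephrins, EFNB3 rose 2.04-fold (1.53 to 2.74) and 3.52-fold (2.56 to 4.92). EFNA5 rose 2.72-fold (2.52 to 2.93) and 2.01-fold (1.92 to 2.12), but its call in the nuclei turned direction under 3 other clusterings. Under these, excitatory neuron-like nuclei numbered 1189 at Leiden resolution 0.5, 1196 with another seed and 1244 with the set among the variable genes. The type was then 1 cluster, in place of 2 clusters of 2589 nuclei. EFNA5 differed between those 2 clusters, as given below, and the part of this in the turn was not tested. The calls of EFNB3, EPHA3, EPHA7, EPHA8, NRP2, SEMA4D, SEMA4F and SEMA4G in cells and of EPHA7, EPHB2, EPHB3, SEMA4A and SEMA4F in nuclei kept their direction but were lost under at least 1 other clustering.

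EFNB1, EFNB2 and EFNA4 were lower in neurons than in RG-like barcodes of both libraries. EFNB2, a transmembrane ligand of EPHB and EPHA4 receptors, stood at 531 CPM (519 to 543) in RG-like and 218 CPM (211 to 225) in neuron-like cells and at 584 CPM (571 to 597) and 187 CPM (180 to 194) in nuclei. Per kilobase of exon it was first of the 53 genes in RG-like barcodes of both libraries, at 106 CPM per kilobase in cells and 117 in nuclei. Neuron-like levels were 2.43-fold (2.34 to 2.53) lower in cells and 3.13-fold (2.99 to 3.27) lower in nuclei. EFNB1, the X-linked ephrin-B, was 3.29-fold (2.98 to 3.65) and 5.82-fold (4.99 to 6.82) lower in neurons, in 29 of 30 and 12 of 12 wells. EFNA4 was lower too, but rested on few transcripts, with 0.821 CPM (0.449 to 1.38) in neuron-like cells and 0.148 CPM (0.0179 to 0.534) in nuclei. EFNA4 and EFNA3 overlap an annotated read-through gene, so counts of each are uncertain.

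Of the RG-high semaphorins, SEMA5A fell from 305 CPM (296 to 314) to 32.1 CPM (29.5 to 34.9) in cells and from 427 CPM (416 to 438) to 14.999 CPM (13.0 to 17.2) in nuclei. That is 9.51-fold (8.70 to 10.4) and 28.5-fold (24.8 to 32.9), in 30 of 30 and 12 of 12 wells. In the nuclei, RG-like wells ran from 229 to 745 CPM and neuron-like wells from 4.92 to 21.7 CPM, with no overlap. At Leiden resolution 2 the log2 fold in cells was −1.95 in place of −3.25 for SEMA5A, −2.32 in place of −3.81 for EPHA2 and −1.86 in place of −3.09 for SEMA3D. With another clustering seed that of EPHB4 in nuclei was −2.65 in place of −3.61. SEMA3D was 8.51-fold (5.79 to 12.9) and 14.96-fold (8.88 to 27.2) lower in neurons. The RG-high receptors were EPHA2, EPHA3, EPHA6, EPHB3, EPHB4 and the plexin PLXNB3, with EPHB2 and PLXNC1 called in nuclei only. EPHA3 stood at 164 CPM in RG-like cells and 197 CPM in the free RNA. EPHA2, known from epithelia, was 14.0-fold (10.1 to 20.1) and 38.3-fold (20.0 to 84.6) lower in neurons, the latter on few transcripts in neuron-like nuclei. EPHB4 was 5.56-fold (4.60 to 6.77) and 12.2-fold (8.69 to 17.7) lower. EPHA6, a receptor of ephrin-A ligands, stood at 759 CPM (745 to 774) in RG-like and 270 CPM (262 to 278) in neuron-like cells and at 956 CPM (940 to 973) and 426 CPM (415 to 437) in nuclei. By CPM alone, without exon length, EPHA6 and not EFNB2 was first of the 53 genes in RG-like barcodes of both libraries.

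The size of several of these differences moved by over 1.5 times with the clustering, in the direction given above. With the 53 genes among the variable genes, the log2 fold in nuclei was 5.11 in place of 6.02 for EPHA10, −4.31 in place of −5.26 for EPHA2, 4.36 in place of 3.75 for PLXNA2, 3.88 in place of 2.96 for SEMA3C, −2.37 in place of −1.17 for EPHA6 and −2.29 in place of −4.19 for EFNA4. In the cells that of EPHB4 was −1.86 in place of −2.48. With another clustering seed that of SEMA6A in nuclei was 1.03 in place of 1.72. Excitatory neuron-like nuclei numbered 1244 and 1196 under these settings, in the order given, in place of 2589.

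Markers of other types differed between neuron-like and RG-like barcodes as well. The 9 Cajal-Retzius markers summed to 119 CPM in neuron-like and 46.4 CPM in RG-like cells and to 183 CPM and 25.6 CPM in nuclei, with RELN at 51.4 CPM in neuron-like cells and 43.4 CPM in nuclei. The 10 intermediate progenitor markers summed to 425 CPM against 202 CPM in cells and 336 CPM against 132 CPM in nuclei, of which ELAVL4, also a gene of neurons, made 229 CPM and 239 CPM in neuron-like barcodes. The 12 choroid plexus markers summed to 913 CPM against 662 CPM in cells and 867 CPM against 393 CPM in nuclei, mostly through the transporter gene SLC4A10, which made 618 CPM and 774 CPM in neuron-like barcodes. Other lists were lower in neuron-like than in RG-like barcodes. The inhibitory neuron markers summed to 24.3 CPM against 213 CPM in cells and 14.7 CPM against 188 CPM in nuclei. Those of pigment epithelium and neural crest summed to 21.4 CPM against 65.3 CPM and 12.9 CPM against 90.7 CPM. Those of dividing progenitors summed to 187 CPM against 449 CPM and 85.6 CPM against 256 CPM. The part of these markers in the differences was not tested.

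**Figure D2:**
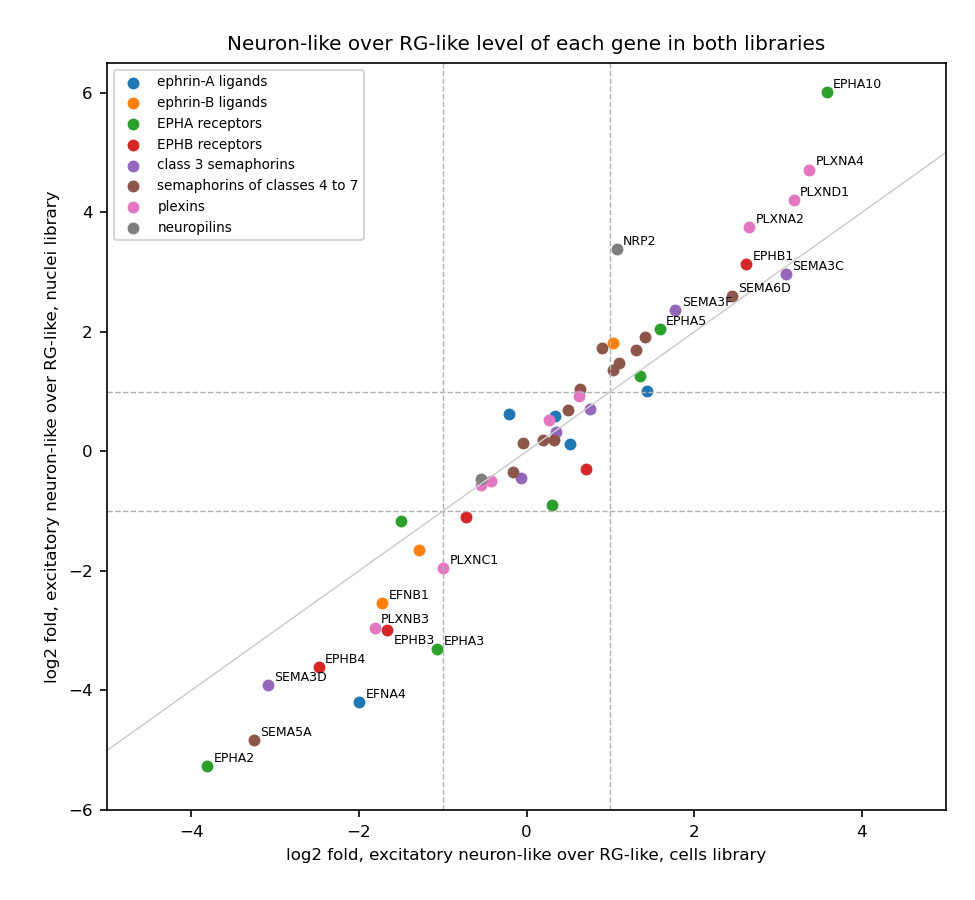
Each point is 1 of the 50 genes tested in both libraries, placed by its log2 fold, excitatory neuron-like over RG-like, in cells (x axis) and in nuclei (y axis), and coloured by role. Dashed lines mark 2-fold, the grey line equality, and genes beyond about 3.9-fold in either library are named. No gene lies past 2-fold in opposite directions, and the folds of EPHA10, PLXNA4, SEMA5A and EPHA2 are wider in nuclei.

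Of 48 listed co-receptors, proteases and effectors of the same pathways, 9 were at least 2-fold higher in neuron-like cells and 2 lower, and in the nuclei 11 of 46 tested were higher and 4 lower, against the 8.78% and 11.6% of all genes in cells and 11.7% and 19.3% in nuclei. L1CAM, an adhesion molecule that joins neuropilin complexes, was 20.6-fold (16.0 to 27.0) and 57.3-fold (36.5 to 95.5) higher. The related NRCAM was 5.01-fold (4.76 to 5.27) and 10.1-fold (9.56 to 10.8) higher. TNIK, a kinase that acts on the cytoskeleton, was 9.08-fold (8.26 to 9.99) and 12.003-fold (10.9 to 13.3) higher. INPPL1, a lipid phosphatase that binds EPHA2, was 5.71-fold (4.82 to 6.80) and 7.36-fold (6.08 to 8.98) lower, the same direction as EPHA2 itself.

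The IP-like cells, a cluster of the cells library with EOMES, NHLH1 and NEUROG2, showed another pattern. Against RG-like cells, 10 of 51 genes were at least 2-fold higher and 8 lower, where 5.25% and 12.3% of all genes were. PLXNA4 reached 1191 CPM (1163 to 1219), 23.3-fold (21.6 to 25.1) above RG-like and 2.25-fold (2.18 to 2.32) above neuron-like cells. PLXNA2 reached 1412 CPM (1381 to 1442), 11.7-fold (11.1 to 12.3) above RG-like cells, and was first of the 53 genes there at 102 CPM per kilobase of exon. Its well values ran from 835 to 2720 CPM with a median of 1249, and those of RG-like cells from 17.1 to 748 CPM with a median of 102. Both plexins were higher in 16 of 16 shared wells.

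The neuropilins and EPHA3 were higher in IP-like cells than in the types on either side. NRP1, the co-receptor of SEMA3A, stood at 139 CPM (130 to 149), against 30.1 CPM (27.3 to 33.1) in RG-like and 20.7 CPM (18.6 to 23.0) in neuron-like cells. NRP2, the co-receptor of SEMA3F, stood at 81.7 CPM (74.5 to 89.3), against 10.4 CPM (8.78 to 12.2) and 21.9 CPM (19.7 to 24.2). EPHA3 stood at 494 CPM (476 to 512), against 164 CPM (158 to 171) and 78.7 CPM (74.5 to 83.0). NRP1 and EPHA3 were above neuron-like cells in 17 of 17 wells and NRP2 in 15 of 17. Against neuron-like cells, 9 of 52 genes were higher and 13 lower, where 5.4% and 10.6% of all genes were. PLXND1 was 6.45-fold (5.12 to 8.23), EPHA10 5.50-fold (3.81 to 8.25) and SEMA3C 3.96-fold (3.48 to 4.54) lower in IP-like cells than in neuron-like ones, while PLXNA4 was higher.

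The comparison with neuron-like cells changed with the clustering. At Leiden resolution 2, where the types held 1039 and 4822 cells in place of 754 and 1669, 4 genes were higher in IP-like cells and 1 lower, and PLXNA4, EPHA10 and SEMA3C were within 2-fold. With another clustering seed 7 genes were lower. NRP1, NRP2 and EPHA3 stayed past 2-fold above neuron-like cells under both. At resolution 2 their log2 folds over neuron-like cells were 1.60, 1.05 and 1.12 in place of 2.75, 1.90 and 2.65, and that of PLXND1 was −1.44 in place of −2.69. Over RG-like cells, the log2 fold there was 3.801 in place of 4.54 for PLXNA4 and 1.40 in place of 2.21 for NRP1, and EPHA3 was within 2-fold of the RG-like level.

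Markers of other types moved with these values. The 9 Cajal-Retzius markers summed to 587 CPM in IP-like cells and to 46.4 to 296 CPM in the other types. Of this sum EBF2 made 478 CPM and EBF3 80.5 CPM. RELN, also on the list, stood at 13.2 CPM, the lowest of the 5 types. Neuronal markers were also present, with TBR1 at 81.5 CPM. The inhibitory neuron markers summed to 94.5 CPM, against 24.3 CPM in neuron-like and 213 CPM in RG-like cells. Those of mesenchyme summed to 14.4 CPM, against 4.34 CPM and 6.27 CPM in the same order. The part of these markers in the result was not tested.

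**Figure D3:**
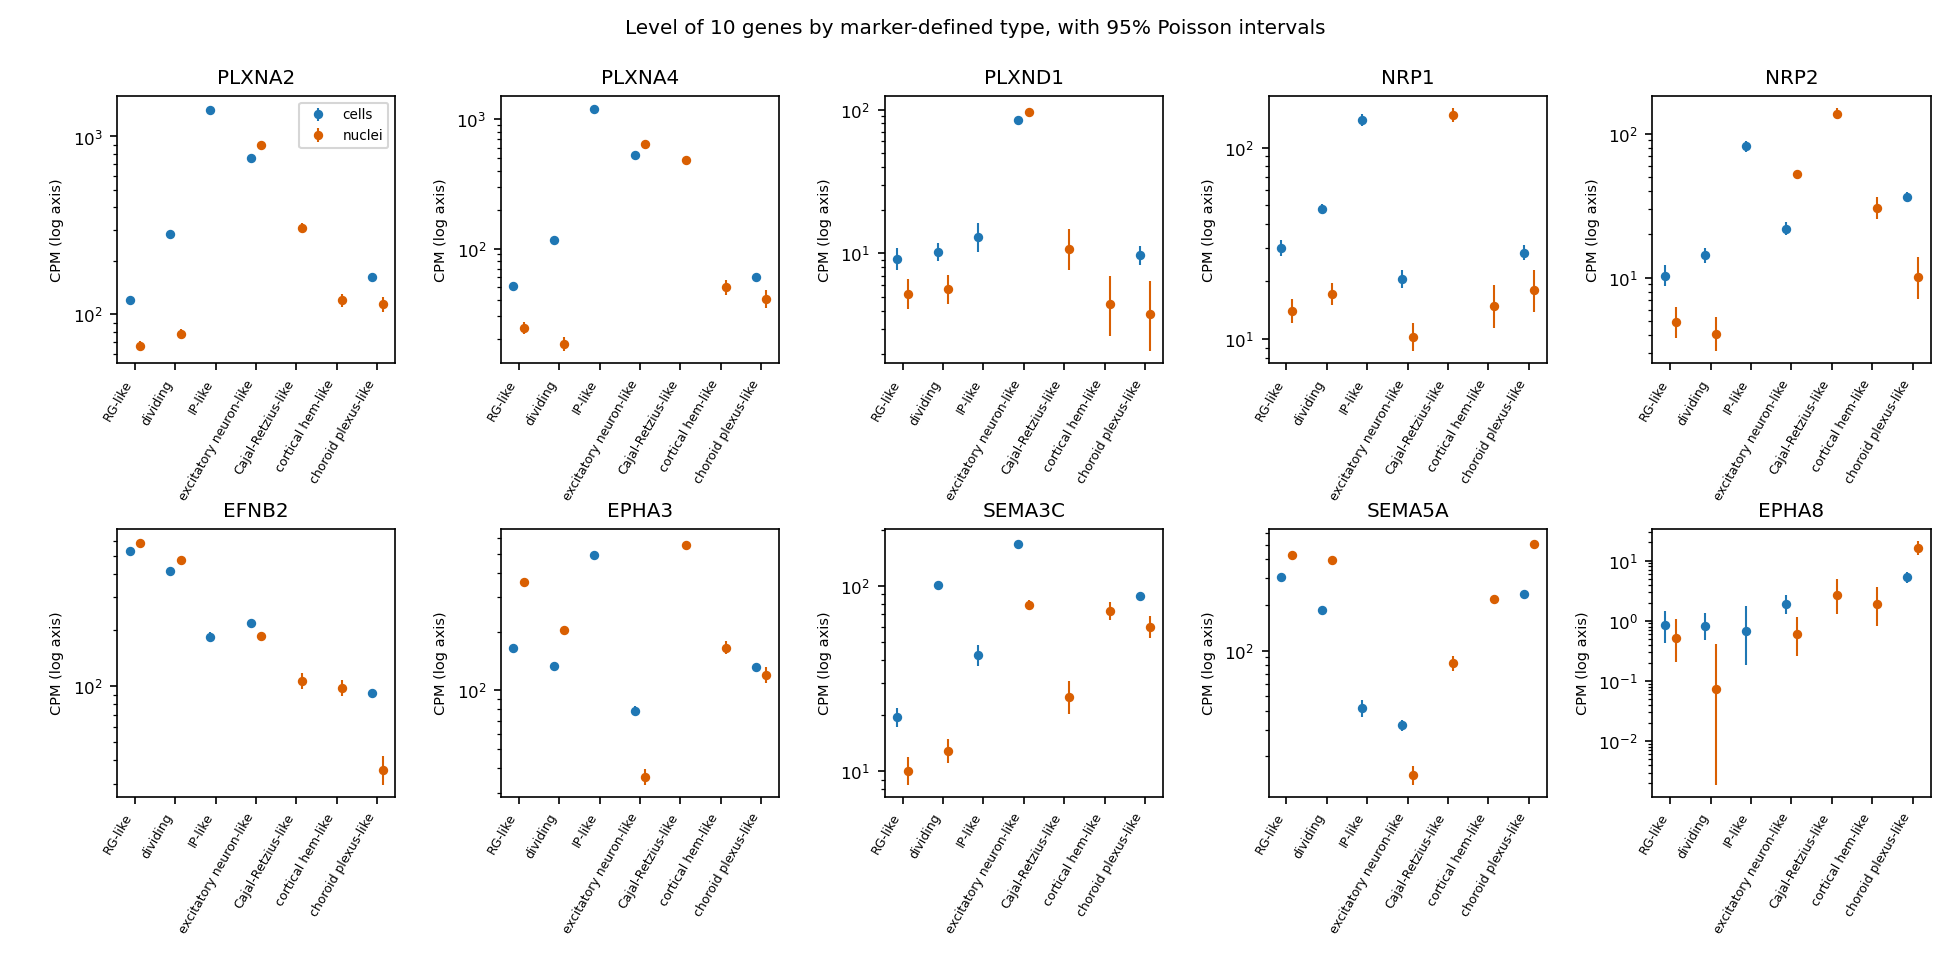
Each panel is 1 gene, with its level in CPM on a log axis for each marker-defined type, in cells (blue) and nuclei (orange). Bars are 95% Poisson intervals, hidden by the point where narrow. PLXNA2 and PLXNA4 peak in IP-like cells, PLXND1 in excitatory neuron-like barcodes, NRP1 and NRP2 in IP-like cells and Cajal-Retzius-like nuclei, and EPHA8 in choroid plexus-like barcodes.

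In the nuclei, Cajal-Retzius-like barcodes, the early reelin-secreting neurons of the cortical surface, had RELN at 1316 CPM and were set against excitatory neuron-like ones. Of 47 genes tested, 8 were higher and 7 lower, where 11.8% and 6.01% of all genes were. NRP1 stood at 148 CPM (136 to 161), against 10.3 CPM (8.63 to 12.1) in excitatory neuron-like nuclei, a difference of 14.4-fold (11.9 to 17.5) seen in 12 of 12 wells. The NRP1 wells ran from 47.5 to 273 CPM in Cajal-Retzius-like and from 1.39 to 16.7 CPM in excitatory neuron-like nuclei, with no overlap. NRP2 was 2.64-fold (2.35 to 2.96) higher, at 137 CPM (126 to 150). Its log2 fold was 1.40, and 2.82 at Leiden resolution 0.5, 3.05 with another clustering seed and 3.23 with the 53 genes among the variable genes, where that of NRP1 was 3.85, and 2.96 at resolution 2. EPHA3 was 15.3-fold (13.9 to 16.9), PLXNC1, the receptor of SEMA7A, 9.96-fold (7.89 to 12.7) and SEMA5A 5.50-fold (4.59 to 6.60) higher. SEMA5A stood at 82.5 CPM there and 218 CPM in the free RNA. At resolution 0.5 the log2 fold of PLXNC1 was 2.47 in place of 3.32.

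The secreted ligands higher in these nuclei were SEMA3D, at 27.0 CPM (21.9 to 32.8) and 24.3-fold (14.1 to 45.1) higher, and SEMA3E, at 25.6 CPM (20.7 to 31.3) and 8.25-fold (5.68 to 12.2) higher. PLXND1, the receptor of SEMA3E, was 8.98-fold (6.56 to 12.6) lower than in excitatory neuron-like nuclei, so the ligand and its receptor were higher in different neurons. At Leiden resolution 2 the log2 fold of SEMA3D was 3.86 in place of 4.60. SEMA3A, another secreted ligand, stood at 99.5 CPM (89.6 to 110) in Cajal-Retzius-like nuclei and was not called. SEMA4D was 3.95-fold (3.51 to 4.47) and SEMA3C 3.14-fold (2.53 to 3.92) lower, the latter with a log2 fold of −2.56 in place of −1.65 when the 53 genes were among the variable genes. SEMA6D was not past 2-fold but was first of the 53 genes in this type at 131 CPM per kilobase of exon, at a level of 1113 CPM (1080 to 1148).

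Markers of other types also differed between these nuclei. The 12 inhibitory neuron markers summed to 362 CPM in Cajal-Retzius-like nuclei, against 14.7 CPM in excitatory neuron-like ones and 70.3 to 188 CPM in the other types. Of this sum GAD1 made 167 CPM, DLX6-AS1 82.0 CPM and GAD2 75.8 CPM, while LHX6 and GSX2 were at 0. The 12 cortical hem markers summed to 398 CPM, against 150.1 CPM, with RSPO2 at 118 CPM. The part of these markers in the differences of NRP1, NRP2, EPHA3 and the others was not tested.

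The excitatory neuron-like nuclei were of 2 clusters, 1382 nuclei led by PRDM8 and 1207 led by OPCML. This comparison was chosen after the values were seen. Of 45 genes tested, 5 were at least 2-fold higher in the PRDM8-led and 3 in the OPCML-led cluster, where 5.3% and 6.1% of all genes were. SEMA3C stood at 144 CPM in the PRDM8-led and 23.1 CPM in the OPCML-led cluster, a 6.20-fold (5.26 to 7.36) difference. EFNA5 and EPHA6, a ligand and a receptor of the ephrin-A class, were both higher in the OPCML-led cluster, at 538 against 145 CPM and 643 against 171 CPM, 3.71-fold (3.45 to 3.99) and 3.76-fold (3.52 to 4.03). NRP2 was 6.31-fold (5.02 to 8.02) higher there, at 85.1 against 13.5 CPM. These 4 genes kept their direction in 12 of 12 wells. EPHA4, a receptor of both ephrin classes, went with SEMA3C, at 211 against 91.4 CPM and also in 12 of 12 wells. The progenitor marker PAX6 stood at 36.3 against 12.9 CPM, PPP1R17 at 29.0 against 1.78 CPM and CALB2 at 24.4 against 108 CPM, and the part of these markers was not tested.

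**Figure D4:**
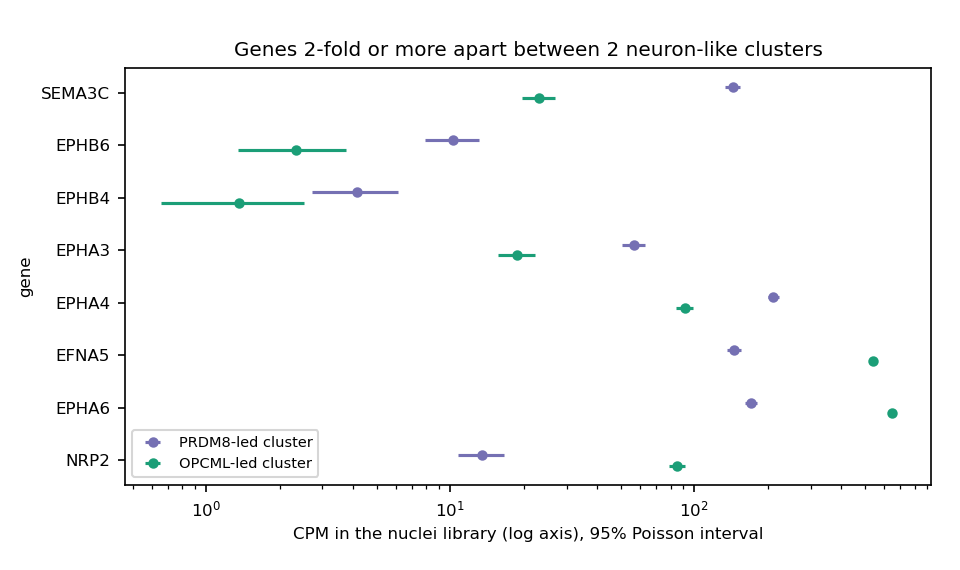
The 8 genes at least 2-fold apart between the 2 excitatory neuron-like clusters of the nuclei library, with the level in CPM on a log axis and 95% Poisson intervals. SEMA3C, EPHB6, EPHB4, EPHA3 and EPHA4 lie higher in the PRDM8-led cluster (purple) and EFNA5, EPHA6 and NRP2 in the OPCML-led cluster (green).

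Choroid plexus-like barcodes, the epithelium that makes cerebrospinal fluid, were compared with RG-like ones as the epithelial branch. In the cells, 9 of 53 genes were higher and 12 lower, where 14.3% and 6.7% of all genes were. In the nuclei, 10 of 51 were higher and 20 lower, where 14.6% and 22.5% were. In both libraries 5 of 51 genes were higher and 12 lower, against 10.4% and 6.0% of all genes. Of the 12, 8 were ligands, namely EFNA1, EFNA3, EFNB1, EFNB2, SEMA3A, SEMA3D, SEMA5B and SEMA7A. EFNB2 fell to 91.6 CPM (87.2 to 96.2) in cells and 35.4 CPM (29.6 to 42.1) in nuclei, 5.80-fold (5.49 to 6.12) and 16.5-fold (13.9 to 19.7) below RG-like barcodes. EPHA6 was 6.45-fold (6.16 to 6.76) and 10.3-fold (9.26 to 11.5) lower. SEMA3A, the best known repellent of cortical axons, was 2.71-fold (2.50 to 2.95) and 8.29-fold (6.51 to 10.7) lower.

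EPHA8 led the genes that were higher in the choroid plexus-like type. It stood at 5.29 CPM (4.28 to 6.48) in cells and 16.1 CPM (12.2 to 20.7) in nuclei, against 0.836 CPM (0.432 to 1.46) and 0.511 CPM (0.206 to 1.05) in RG-like barcodes. In the cells it was 6.34-fold (3.46 to 12.7) higher, in 14 of 20 wells, and the free RNA held it at 3.58 CPM. In the nuclei it was 31.4-fold (14.3 to 81.6) higher, in 6 of 11 wells, and lower in 1. The secreted ligands SEMA3C and SEMA3F were both higher, SEMA3C by 4.53-fold (3.98 to 5.16) and 5.95-fold (4.79 to 7.41) and SEMA3F by 3.02-fold (2.39 to 3.84) and 8.82-fold (6.14 to 12.8). SEMA3F was higher in 17 of 20 and 11 of 11 wells. NRP2, which binds both ligands, was 3.49-fold (2.92 to 4.20) and 2.03-fold (1.32 to 3.07) higher. In the free RNA, SEMA3C stood at 106 CPM in the cells, against 88.3 CPM in choroid plexus-like cells, and NRP2 at 32.5 CPM in the nuclei, against 10.1 CPM in choroid plexus-like nuclei. In the nuclei, SEMA5A was first of the 53 genes in this type at 40.8 CPM per kilobase of exon and stood at 502 CPM (479 to 525), against 427 CPM (416 to 438) in RG-like nuclei. In the cells it went the other way, at 237 CPM (230.3 to 245) against 305 CPM (296 to 314).

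Among the listed pathway genes the largest fold in the choroid plexus-like type was that of KDR, the VEGF receptor that pairs with neuropilins, at 33.6-fold (21.4 to 56.1) and 69.3-fold (38.9 to 136) above RG-like barcodes. KDR is also a gene of endothelium. The 6 endothelial markers summed to 45.7 CPM in choroid plexus-like cells and 11.1 to 15.1 CPM in the other types. Of the sum in choroid plexus-like cells CLDN5 made 34.3 CPM and CDH5 1.01 CPM. In nuclei they summed to 5.72 CPM, with CDH5 at 0. The choroid plexus-like cells also held cortical hem markers at 1857 CPM, against 121 to 221 CPM in the other types, markers of pigment epithelium and neural crest at 271 CPM, against 21.4 to 65.3 CPM, of mesenchyme at 63.1 CPM, against 4.15 to 14.4 CPM, and of oligodendrocyte precursors at 105 CPM, against 10.3 to 23.1 CPM. Cajal-Retzius markers stood at 296 CPM there and 46.4 CPM in RG-like cells, and microglia markers at 21.7 CPM and 5.99 CPM. In choroid plexus-like nuclei, markers of pigment epithelium and neural crest summed to 706 CPM, against 12.9 to 392 CPM in the other types, and those of oligodendrocyte precursors to 127 CPM, against 7.61 to 82.3 CPM. In choroid plexus-like and RG-like nuclei respectively, the cortical hem markers stood at 1538 CPM and 167 CPM, the Cajal-Retzius markers at 293 CPM and 25.6 CPM, the microglia markers at 29.4 CPM and 4.46 CPM and the mesenchyme markers at 13.1 CPM and 1.83 CPM. The part of these markers was not tested. Barcodes of over 30000 transcripts made 39.2% of the transcripts of choroid plexus-like cells and 9.37% of those of RG-like cells. The first genes of the choroid plexus-like nuclei were TEKT1, CFAP47 and other genes of motile cilia. The type grew from 367 to 1292 nuclei at Leiden resolution 0.5 and to 929 at resolution 2. There, 12 and 13 genes were lower in place of 20, and EPHB1 and SEMA6A, both lower here, turned direction. EFNA3 was within 2-fold of the RG-like level at both resolutions and EFNA1 at resolution 2. The log2 fold of EFNB2 was −2.65 and −3.24 in place of −4.04, that of EPHA6 −1.97 and −2.35 in place of −3.37, and that of SEMA3A −1.80 and −2.37 in place of −3.05. At resolution 0.5 that of EPHA8 was 3.77 in place of 4.98, that of SEMA3F 2.55 in place of 3.14 and that of NRP2 2.14 in place of 1.02.

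The cortical hem is the signalling border next to the choroid plexus, and 1 cluster of 786 nuclei took its name. The cluster held 4 hem markers (RSPO2, BMP7, LMX1A and WLS) and as many choroid plexus markers (TTR, CLIC6, HTR2C and OTX2) under the marker rule. The type was not found at Leiden resolution 0.5 and held 238 nuclei at resolution 2 and 290 with another seed. At resolution 2 and with that seed, choroid plexus-like nuclei numbered 929 and 864 in place of 367. Which nuclei changed name was not tested, so the hem-like cluster may hold choroid plexus-like nuclei. Against RG-like nuclei, 10 of 49 genes were higher and 12 lower, where 11.8% and 11% of all genes were. SEMA3C rose 7.26-fold (5.93 to 8.94), NRP2 6.15-fold (4.55 to 8.37) and SEMA3F 5.37-fold (3.65 to 7.98), each in 12 of 12 wells. The SEMA3C difference depended on the clustering, since its log2 fold was −3.36 at resolution 2 and −3.62 with the other seed, and SEMA3F was within 2-fold under both. NRP2, EFNB2 and SEMA3D stayed past 2-fold in their direction, NRP2 with a log2 fold of 3.93 and 3.66 in place of 2.62 and SEMA3D, with the other seed, −3.31 in place of −2.45. NRP2 stood at 30.5 CPM in hem-like nuclei and 32.5 CPM in the free RNA. EFNB2 was 5.96-fold (5.40 to 6.59) and SEMA3D 5.47-fold (3.14 to 10.4) lower. Choroid plexus markers summed to 13975 CPM in hem-like nuclei, of which HTR2C made 12477 CPM, and the hem markers to 3589 CPM. In choroid plexus-like nuclei the same lists summed to 31282 CPM and 1538 CPM. The choroid plexus markers summed to 293 to 867 CPM in RG-like, dividing, excitatory neuron-like and Cajal-Retzius-like nuclei. In hem-like and RG-like nuclei respectively, the Cajal-Retzius markers stood at 215 CPM and 25.6 CPM, those of pigment epithelium and neural crest at 392 CPM and 90.7 CPM, those of oligodendrocyte precursors at 82.3 CPM and 23.8 CPM and those of mesenchyme at 28.2 CPM and 1.83 CPM. In the same order, dividing progenitor markers stood at 606 CPM and 256 CPM and microglia markers at 9.56 CPM and 4.46 CPM. The part of these markers was not tested. Set directly against the hem, choroid plexus-like nuclei had 2 of 45 genes higher and 14 lower, where 8.37% and 12.5% of all genes were. The 2 were EPHA8, 8.62-fold (4.10 to 20.9), and SEMA5A, 2.29-fold (2.11 to 2.48), and the lower ones included EPHB1, SEMA6A, EPHA5 and NRP2. At resolution 2 and with the other seed, 10 genes were higher and 6 lower. EPHA8, SEMA5A, EPHB1, SEMA6A, EPHA5 and NRP2 kept their calls, SEMA5A with a log2 fold of 3.30 and 3.46 in place of 1.19, and EFNA2 and EPHA6 turned from lower to higher.

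Dividing progenitors differed little from RG-like barcodes, in these genes as over all genes. In the cells 3 of 52 genes were higher and 1 lower, where 3.37% and 3.85% of all genes were, and in the nuclei 0 of 49 were higher and 3 lower, where 3.62% and 5.48% were. PLXNA2 and PLXNA4 were 2.34-fold (2.22 to 2.47) and 2.28-fold (2.10 to 2.48) higher in the cells, in 19 and 18 of 23 wells, and not past 2-fold in the nuclei. Both were within 2-fold in the cells at Leiden resolution 2, and both lay below the free RNA, at 282 CPM against 423 CPM for PLXNA2 and 117 CPM against 321 CPM for PLXNA4. SEMA3C was 5.15-fold (4.54 to 5.85) higher in the cells but in only 12 of 23 wells. Most of it came from 1 of 3 dividing clusters, the 803 cells led by SV2C, where SEMA3C stood at 286 CPM (273 to 300) against 16.0 CPM (13.7 to 18.6) in the AURKB-led and 31.0 CPM (25.8 to 37.0) in the TOP2A-led cluster. Between the SV2C-led and the AURKB-led cluster, a comparison chosen after the values were seen, 3 of 50 genes were higher and 10 lower, where 3.18% and 6.28% of all genes were, with 1 shared well. Within that cluster, wells ran from 9.61 to 499.6 CPM with a median of 209. RGS3, which links ephrin-B to G protein signalling, was 4.52-fold (3.92 to 5.25) higher in dividing cells and 11.5-fold (9.33 to 14.3) in dividing nuclei, where EFNB1 and EFNB2 were within 2-fold.

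Of the 43 genes with enough transcripts for each of the 11 comparisons between types, 5 were past 2-fold in none, namely EPHA4, PLXNA1, PLXNA3, PLXNB2 and SEMA6C, while 45.7% of all genes so tested were. EPHA1, with enough transcripts for 5 comparisons only, was past 2-fold in none of those. EPHA4, a receptor of both ephrin classes, was first of the 53 genes in choroid plexus-like cells at 31.9 CPM per kilobase of exon, with a level of 241 CPM against 257 CPM in the free RNA. It stayed within 2-fold in the 11 comparisons made, with a largest log2 difference of 0.89. Types that were not compared lay further apart, and EPHA4 stood at 114 CPM (103 to 125) in Cajal-Retzius-like and 271 CPM (263 to 280.2) in RG-like nuclei.

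The order of types was then compared between libraries, over the 4 types that both held. The highest type was the same for 39 of 51 genes, 76.5%, against 67.8% of all genes. Of these 39, 21 were highest in excitatory neuron-like, 9 in choroid plexus-like, 5 in RG-like and 4 in dividing barcodes, where 27.3%, 29.7%, 25.9% and 17.2% of all genes with the same highest type were. NRP1 and NRP2 were among the 12 others. Within a type, nuclei over cells gave a median log2 ratio of −0.26 in RG-like, −0.28 in dividing and −0.14 in neuron-like barcodes, over 51 genes tested, and −0.66 in choroid plexus-like barcodes, over 53, where all genes gave −0.43, −0.40, −0.51 and −0.61. At least 2-fold lower in nuclei were 9, 9, 13 and 20 genes in the same order, where 24.8%, 26.8%, 29.6% and 35.2% of all genes were. Among them were SEMA3C and PLXNA4 in dividing barcodes, at log2 ratios of −2.96 and −2.68. Most SEMA3C of the dividing cells came from the SV2C-led cluster, and no dividing cluster of the nuclei was led by SV2C. At least 2-fold higher were 2 genes in each type, where 1.2%, 1.07%, 1.33% and 3.15% of all genes were. EFNA5 was 1 of them in 3 types, by a log2 ratio of 1.52 in RG-like, 1.15 in dividing and 1.09 in neuron-like barcodes. The compartment, the conditions, the days and the clusters pooled under a type differed between the libraries and cannot be told apart.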

How the data were processed

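Split-seq (Parse Biosciences Evercode) was run by the authors on fixed cells and nuclei, and the values the authors deposited are raw counts of transcripts per barcode and gene on GRCh38, with no normalization and no selection of cells. Whether strand was used in counting is not given in the sources used here, and 29 of the 53 genes overlap a gene on the opposite strand. Barcodes with over 500 genes, over 1000 transcripts and at most 20% mitochondrial transcripts were kept from 1303455 (cells, 8 sub-libraries) and 197446 (nuclei, 2 sub-libraries).

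Clustering used scanpy 1.11.5 on log values per 10000 transcripts (2000 variable genes without the 53, 30 principal components, 15 neighbours, Leiden resolution 1, seed 0). A cluster could take a name when at least 3 markers and 33.3% of a list were 1.5-fold higher than in all other barcodes and detected in 25% of it. The dividing list went first, and otherwise the list with the largest share. The cluster stayed unnamed under 50 barcodes, or when another list had more markers among its first 10 genes. It also did when its best list was outside the main types, such as pigment epithelium, or when it was shallow with none of that list's markers there. This rule was chosen after the clusters were seen. Scrublet marked 0 doublets in each library, so none were removed and an alternative left out the highest scores. Counts were summed per type. With 1 sample per library there was no test and no p-value. Intervals are exact Poisson (levels) and exact conditional binomial (folds) at 95%. Total counts were 157306496 and 72162728 transcripts, and 3 counts in a type of the cells were worth 0.146 to 0.514 CPM and in a type of the nuclei 0.219 to 0.818 CPM. The code for folds and clustering was run on simulated counts drawn from these types, without doublets, free RNA or spread of depth. That run checks the code only and cannot show how stable the real clusters are.

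The genes and lists were chosen with earlier results of these data known. Values are printed for genes past the fold (up to 8 in each direction), for the most abundant of each role and for up to 4 pathway genes per direction. Gene lengths are from GENCODE release 44 on GRCh38. Alternatives changed the depth and mitochondrial limits, doublets, clustering, weighting, denominator, fold and transcript minimum.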

Additional observations from a re-analysis of the deposited data

How the results depend on the processing

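Of 402 recomputed counts and medians, 349 moved within a set limit. The limit was 1.5 times for counts and, for medians, their SD over the sub-libraries of the cells. The values beyond the limit are given here with the main count in brackets. Leiden resolution 0.5 gave 12 genes lower in choroid plexus-like than RG-like nuclei [20]. Resolution 2 gave 13 there, 4 higher [9] and 1 lower [13] in IP-like than neuron-like cells, and 10 higher [2] and 6 lower [14] in choroid plexus-like than hem-like nuclei. Another clustering seed gave the same 10 and 6, and 7 lower in IP-like than neuron-like cells. These types changed in size: choroid plexus-like nuclei numbered 1292 at resolution 0.5, 929 at resolution 2 and 864 with the other seed in place of 367, and hem-like nuclei 0, 238 and 290 in place of 786.

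Dividing against RG-like cells had 3 higher and 1 lower. The number higher was 1 at resolution 2, with the 53 genes among the variable genes and at a fold of 3, and 6 at a fold of 1.5. The number lower was 2 in barcodes over 5000 transcripts, at resolution 2, with the other seed, with no transcript minimum, without barcodes over 30000 transcripts, without shared 3-well combinations and with barcodes weighted equally. It was 4 with wells weighted equally, 7 at a fold of 1.5 and 0 with at least 100 transcripts. In dividing nuclei 3 were lower and 0 higher. The number lower was 5 in barcodes over 5000 transcripts, 1 at resolution 2, with the 53 genes variable and with barcodes weighted equally, 7 at a fold of 1.5, 0 at a fold of 3 and 6 with no minimum. With wells weighted equally 1 was higher.

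A fold of 1.5 gave 14 higher in choroid plexus-like than RG-like cells [9], 17 higher [10] and 13 lower [8] in IP-like than RG-like cells, 13 higher in Cajal-Retzius-like nuclei [8] and 5 higher in choroid plexus-like than hem-like nuclei [2]. Wells weighted equally also gave 13 lower in IP-like cells, and no minimum also gave 13 higher in Cajal-Retzius-like nuclei. A fold of 3 gave 9 higher in neuron-like cells [18], 5 lower in choroid plexus-like cells [12], 6 higher in choroid plexus-like nuclei [10], 6 higher and 5 lower in IP-like than RG-like cells, 4 higher and 5 lower in IP-like than neuron-like cells, 4 lower in Cajal-Retzius-like nuclei [7], 3 higher in hem-like nuclei [10], and 1 higher and 7 lower in choroid plexus-like than hem-like nuclei. At least 100 transcripts gave 6 higher in choroid plexus-like than RG-like nuclei and 1 than hem-like nuclei, and barcodes weighted equally gave 4 than hem-like nuclei. Without mitochondrial genes in the denominator the median log2 ratio of nuclei over cells in the choroid plexus-like type was −0.76.

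Of 2836 recomputed folds of called genes, 2818 kept their direction and 2608 stayed past 2-fold. The 18 that turned are log2 folds. EFNA5 in neuron-like nuclei was −0.10 at resolution 0.5, −0.11 with the other seed and −0.83 with the 53 genes variable. Excitatory neuron-like nuclei then numbered 1189, 1196 and 1244 in the same order, in place of 2589. In choroid plexus-like against RG-like nuclei, EPHB1 was 0.55 at resolution 0.5 and 0.012 at resolution 2, and SEMA6A 0.79, 0.41 and, with the other seed, 0.15. At resolution 2 and with the other seed, hem-like against RG-like nuclei had SEMA3C at −3.36 and −3.62 and PLXNB3 at 0.85 and 0.31, and choroid plexus-like against hem-like nuclei had EFNA2 at 0.84 and 1.18 and EPHA6 at 0.70 and 0.97. In IP-like cells, SEMA3C was −0.20 against RG-like cells with wells weighted equally, and SEMA3D −0.0059 against neuron-like cells at resolution 2. At resolution 0.5 no cells were named RG-like or IP-like and no nuclei hem-like, so those values could not be computed. Leaving out barcodes over 30000 transcripts, leaving out shared 3-well combinations, weighting barcodes equally and leaving out clusters mostly of 1 well were added after the data were seen, and none of them reversed a fold. No paired analysis was possible because each library is 1 sample. Depth limits EFNA4, EPHA1, EPHA8, PLXNB3 and SEMA3G most. The share of free RNA in the kept barcodes was not estimated, so the part of a level that comes from it is not known.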

Other observations

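Levels of these genes in 3 of the clusters without a name are given here. In the nuclei, 1042 barcodes led by EBF2 and LZTS1 had PLXNA2 at 2011 CPM (1967 to 2056), PLXNA4 at 1463 CPM (1426 to 1502) and EPHA3 at 466 CPM (445 to 488). Their NRP1 level was 128 CPM (117 to 139) and their NRP2 level 81.2 CPM (72.5 to 90.7). EBF2 and LZTS1 were also among the first genes of the IP-like cells of the other library. A smaller cluster of 134 nuclei, led by EOMES and with 10 of the 12 dividing markers, had PLXNA2 at 2189 CPM (2087 to 2295) and NRP1 at 322 CPM (283 to 364), while PLXNA4 stood at 281 CPM (245 to 320), the level of the free RNA at 282 CPM. In RG-like nuclei PLXNA2 stood at 66.3 CPM and PLXNA4 at 24.3 CPM.

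A cluster of 207 nuclei led by PAX3 and ZIC1 had another set. EPHA7 stood at 785 CPM (728 to 845), EPHA3 at 727 CPM (672 to 785), EFNA5 at 637 CPM (586 to 692) and SEMA6A at 532 CPM (485 to 582). The free RNA of the nuclei held EPHA7 at 421 CPM, EPHA3 at 228 CPM, EFNA5 at 216 CPM and SEMA6A at 139.9 CPM, and excitatory neuron-like nuclei had EPHA7 at 826 CPM. These clusters were picked after their values were seen, and their levels are descriptions.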
